A study of Mus musculus with 8 samples.

Results

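The genes described here are 10 genes grouped as alpha-defensins of mouse Paneth cells, out of 16958 genes with a value in the crypt table. They were picked from a list with their values in these libraries already known, so their levels are a description. The named members are Defa3, Defa5, Defa21, Defa22, Defa26, Defa32, Defa39 and Defa40. The other 2 are the gene identifiers 13222 and 13223, to which the RefSeq annotation used here gives no symbol, so nothing is said of what they encode. RNA came from intestinal crypts of C57BL/6 mice aged 8 weeks. The control library, WT, carries the genotype setdb1fl/fl, and the libraries VEMD2, VEMD3, VEMD4, VEMD6 and VEMD8 carry setdb1 iIEC-KO, a loss of Setdb1 switched on in the intestinal epithelium. The recombinase was CreERT2 under the Villin promoter, which is active across the epithelium and is not limited to Paneth cells. Tamoxifen was given once at 800 mg/kg to these mice and to WT littermates alike. Each library is a group of its own, so no value below carries an error, no difference was tested and every difference compares single libraries. The number in a library's name is used as a label alone, and the region of the intestine and any pooling of animals are not given in the sources used here.

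Alpha-defensins are small antimicrobial peptides that Paneth cells at the base of small intestinal crypts store in granules and release into the crypt lumen. In the mouse they are also called cryptdins, are made as inactive precursors, and are cut to the active form by the matrix metalloproteinase matrilysin, the product of Mmp7. The genes form a large family of near copies. In bulk RNA such as this, fewer Paneth cells and less defensin RNA per Paneth cell cannot be told apart.

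Setdb1, the deleted gene, was at 9.42 FPKM (fragments scaled for gene length and library size) in WT and at 6.64, 7.03, 5.49, 3.53 and 4.95 in the knockout libraries from VEMD2 to VEMD8, lower than WT in each and 2-fold lower in VEMD6 alone. FPKM summed over all genes lay between 481519 in VEMD6 and 585501 in WT. The depth behind the values is unknown, since no counts were used. Ratios to WT were taken on the log2(FPKM + 1) scale, and a gene was called 2-fold lower or higher at a log2 ratio of -1 or 1. The median over the 10862 genes with a mean of 1 FPKM or more, called tested below, was at a log2 ratio of 0.09, 0.12, 0.03, -0.23 and -0.06 in the knockout libraries in the same order.

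All 28 genes of the table whose symbol is Defa and a number lie in one cluster on chromosome 8 of GRCm38, from 21025545 to 21735471, over 710 kb. The 8 named members are spread along it. Defa21 is the first gene of the cluster, at chr8:21025545-21026517. Defa22 lies at chr8:21162277-21163249, Defa40 at chr8:21249715-21250553, Defa3 at chr8:21287409-21288377 and Defa5 at chr8:21297394-21298375. Defa32 lies at chr8:21529030-21530012, Defa26 at chr8:21618168-21618972 and Defa39 at chr8:21702524-21703647.

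How alike the members are is shown by the last 99 bases of the coding sequence, which lie in the last exon, the exon that in this family encodes the active peptide. They were read from the GENCODE M21 transcripts on GRCm38. Defa5 is the reference for the first group below, Defa26 for Defa40, and Defa22 for Defa21 and Defa32. Capitals mark bases that differ from the reference, or have no counterpart in it, in an alignment of the whole coding sequences.
Defa5, chr8:21298183-21298281, plus strand: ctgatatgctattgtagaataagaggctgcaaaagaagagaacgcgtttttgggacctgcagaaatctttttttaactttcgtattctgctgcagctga
Defa3 against Defa5, chr8:21288185-21288283, plus strand: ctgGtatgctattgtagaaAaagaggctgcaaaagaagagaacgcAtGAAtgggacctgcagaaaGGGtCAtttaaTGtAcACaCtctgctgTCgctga
Defa26 against Defa5, chr8:21618784-21618882, plus strand: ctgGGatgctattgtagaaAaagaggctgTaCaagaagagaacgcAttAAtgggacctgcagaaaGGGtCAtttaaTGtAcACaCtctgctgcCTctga
Defa22 against Defa5, chr8:21163057-21163155, plus strand: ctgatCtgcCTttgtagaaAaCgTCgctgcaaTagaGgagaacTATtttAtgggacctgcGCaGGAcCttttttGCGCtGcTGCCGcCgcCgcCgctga
Defa40 against Defa26, chr8:21250363-21250461, plus strand: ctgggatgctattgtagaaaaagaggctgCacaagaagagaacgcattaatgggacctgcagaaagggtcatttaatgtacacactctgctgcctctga
Defa21 against Defa22, chr8:21026325-21026423, plus strand: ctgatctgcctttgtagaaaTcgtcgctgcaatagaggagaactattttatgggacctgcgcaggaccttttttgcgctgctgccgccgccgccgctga
Defa32 against Defa22, chr8:21529820-21529918, plus strand: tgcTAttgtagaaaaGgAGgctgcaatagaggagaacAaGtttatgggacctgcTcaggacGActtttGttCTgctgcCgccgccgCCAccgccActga

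Defa21 and Defa22 were the closest pair, with 280 of 282 coding bases the same, and only 1 of the 99 bases printed differs. Defa26 and Defa40 followed, at 97.9% identity. Defa3 was at 92.9% identity to Defa26 and at 85.5% to Defa5. Defa39 stands apart, with a coding sequence of 351 bases against 282 or 288 in the others and at most 65.2% identity to any of them. Its RefSeq synonyms place it with the CRS1C group of cryptdin-related sequences. No transcript was matched for the identifiers 13222 and 13223.

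The RefSeq table of GRCm38.p6 holds promoters of 3 members, Defa21, Defa22 and Defa32, and of 16 Defa genes in all, each with 250 bases before the start and 50 after it. The motifs searched by exact letters on both strands were CTTTGA, the core bound by TCF and LEF factors of the Wnt pathway, TATAAA, the TATA box, and AACAAT, the core bound by SOX factors. The promoters of Defa21 and Defa22 were the same in all 300 bases. They are shown, with that of Defa32, because Defa21 and Defa22 share these letters and yet differ in level, as given below. Capitals mark CTTTGA, here read on the other strand as TCAAAG, and TATAAA in the 120 bases before the start. No 2 matches in these stretches overlap.
Defa22, chr8:21162157-21162276, plus strand, the same letters as Defa21 at chr8:21025425-21025544: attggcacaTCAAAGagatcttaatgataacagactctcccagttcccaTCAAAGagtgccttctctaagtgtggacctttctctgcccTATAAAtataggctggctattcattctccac
Defa32, chr8:21528910-21529029, plus strand: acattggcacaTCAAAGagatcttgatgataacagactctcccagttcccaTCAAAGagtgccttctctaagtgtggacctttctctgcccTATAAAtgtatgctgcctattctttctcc
CTTTGA was present in the promoters of all 3 members and in 13 of 16 Defa promoters, against 16.0% of 32851 promoters in the table. TATAAA was in 15 of 16, against 13.6%. AACAAT was in none of the 3 members and in 2 of 16, against 10.7%. The promoters of the 3 members are near copies of each other, at 96.4% to 100% identity. Some other pairs among the 16 were also the same in all 300 bases, such as Defa23 and Defa31, or Defa42 and Defa43. Others were less alike, such as Defa28 and Defa35 at 55.1%. The counts over the 16 promoters thus include copies of the same letters. A match of letters is a description of the sequence.

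Because the genes are so alike, single values are uncertain wherever a read could come from several of them. Of all stretches of 50 bases in the Defa32 transcript, 100% also occur in transcripts of other genes, and for Defa5 the share was 99.7%. It was 92.2% for Defa3, 74.9% for Defa22 and 72.9% for Defa21. The most distinct members were Defa26 at 40.2%, Defa40 at 37.2% and Defa39 at 33.5%. With stretches of 100 bases, none of Defa39 and 1.05% of Defa40 was shared, against 88.1% of Defa5 and 99.7% of Defa32. Read length and the handling of reads that match several genes are not given in the sources used here, so the sum over the members is given first and the single values after it.

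The members together were higher in VEMD2 than in WT and far lower in VEMD4, VEMD6 and VEMD8. Their sum measured 8085 FPKM for WT, 12662 for VEMD2, 3399 for VEMD3, 789 for VEMD4, 349.8 for VEMD6 and 349 for VEMD8. The sum was thus 1.57 times the WT value in VEMD2, and 2.38-fold, 10.2-fold, 23.1-fold and 23.2-fold lower in the other libraries in order. The order of levels ran from VEMD2 over WT, VEMD3 and VEMD4 down to VEMD6 and VEMD8, and with 1 library each no spread is known by which neighbours in this order could be told apart. In WT the members made up 1.38% of the FPKM of all genes, and in VEMD8 they made up 0.0709%.

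Without 13222 and 13223, a sum chosen after their values were seen, the 8 named members measured 4157 FPKM for WT, 6266 for VEMD2, 2510.4 for VEMD3, 711 for VEMD4, 349 for VEMD6 and 347 for VEMD8. That is 1.66-fold lower than WT in VEMD3, short of the 2-fold rule, and 5.85-fold, 11.9-fold and 12.0-fold lower in VEMD4, VEMD6 and VEMD8. The sum over all 28 Defa genes measured 37081 FPKM for WT, 51854 for VEMD2, 23056 for VEMD3, 7939 for VEMD4, 3056 for VEMD6 and 3807 for VEMD8. It too was highest in VEMD2, and it was lowest in VEMD6.

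**Figure D1:**
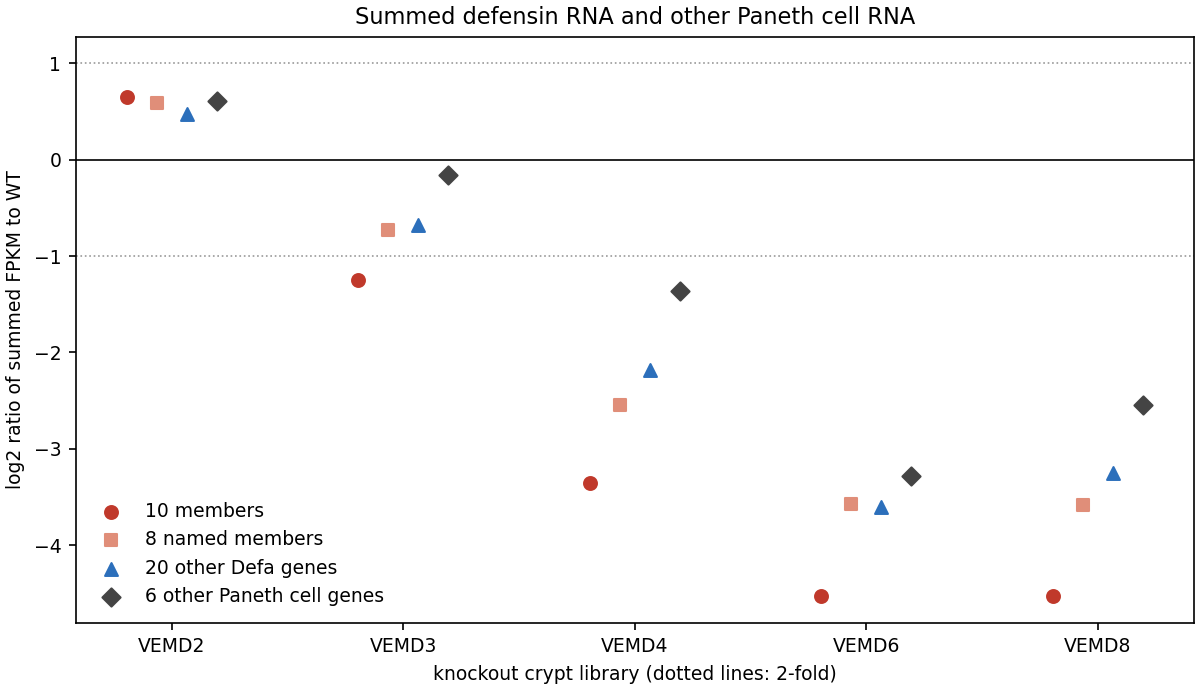
Log2 ratio to WT of summed FPKM in each knockout crypt library, for the 10 members, the 8 members with a symbol, the 20 other Defa genes and 6 other Paneth cell genes (Lyz1, Ang4, Mmp7, Itln1, Clps, Mptx2). Each point is 1 library, the dotted lines mark 2-fold, and the sum of the 10 members lies lowest of the 4 sums in VEMD3, VEMD4, VEMD6 and VEMD8, at -1.25, -3.35, -4.53 and -4.53.

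Gene by gene, no member was 2-fold lower in VEMD2, where 2.39% of tested genes were, and none was 2-fold higher, where 2.44% were. In VEMD3, 2 of 10 were lower against a background of 4.62%, namely 13222 and 13223, and Defa3 alone was higher against 6.00%. In VEMD4, 8 of 10 were lower against 5.04% and none higher against 7.10%. In VEMD6, 8 were lower against 8.15% and 2 higher against 5.04%, and in VEMD8, 8 were lower against 5.21% and none higher against 4.36%. The same 8 members were lower in all of VEMD4, VEMD6 and VEMD8, which held for 1.97% of tested genes, and none was lower in all 5 knockout libraries, which held for 0.626%. The members were chosen with these values known, so nothing is read from these counts. All 10 passed the filter of a mean of 1 FPKM, Defa21 and Defa3 only through VEMD6. Over the members, the median log2 ratio was 0.55, -0.77, -2.83, -3.98 and -3.92 from VEMD2 to VEMD8.

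Defa5 had the highest mean of the members. It measured 2211 FPKM for WT, 3079 for VEMD2, 1291 for VEMD3, 416 for VEMD4, 92.0 for VEMD6 and 216 for VEMD8. Its level in VEMD6 was below that in VEMD8, with log2 ratios to WT of -4.57 and -3.35, and nearly all of its sequence is shared with other genes.

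Defa26 and Defa40, the close pair with more sequence of their own, had similar ratios to WT. Defa26 measured 281 FPKM for WT, 382 for VEMD2, 161 for VEMD3, 44.1 for VEMD4, 13.4 for VEMD6 and 18.6 for VEMD8. Defa40 was at 292, 406, 146, 35.1, 8.17 and 15.5 in the same libraries. Both were lowest in VEMD6, as Defa5 was. Set against Defa5 within each library, Defa26 kept a ratio between 0.0863 and 0.145, and Defa40 one between 0.072 and 0.132.

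Defa22 measured 414 FPKM for WT, 716 for VEMD2, 336 for VEMD3, 109.8 for VEMD4, 31.9 for VEMD6 and 24.9 for VEMD8. Its log2 ratio in VEMD3, -0.30, was nearer to WT than those of Defa5, Defa26, Defa39 and Defa40. In VEMD8 it was lower relative to Defa5 than in any other library, at 0.116 of the Defa5 value against 0.187 in WT and 0.347 in VEMD6.

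Defa32, which shares every stretch of 50 bases with other genes, was low throughout. It measured 18.9 FPKM for WT, 37.7 for VEMD2, 20.5 for VEMD3 and 2.35 for VEMD6, and was listed at 0 for VEMD4 and VEMD8. Its highest value, as for all members but Defa3 and Defa21, was in VEMD2.

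Defa39, of the cryptdin-related group, followed Defa5 in most libraries but not in VEMD6. It measured 940.4 FPKM for WT, 1644 for VEMD2, 551 for VEMD3, 106 for VEMD4, 163.5 for VEMD6 and 71.75 for VEMD8. It was the only named member with a WT value above 0, other than Defa32, that was higher in VEMD6 than in VEMD4. Some Defa genes outside the members were so too, among them Defa36, at 112 in VEMD4 and 136 in VEMD6, and Defa38, at 15.3 and 136. Its ratio to Defa5 was 0.425 in WT and between 0.254 and 0.534 in VEMD2, VEMD3, VEMD4 and VEMD8, but 1.78 in VEMD6.

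The identifiers 13222 and 13223 had the widest range of levels on the log2(FPKM + 1) scale. Gene 13222 was the highest member in WT, at 2527 FPKM, and measured 3907 for VEMD2, 527 for VEMD3, 40.3 for VEMD4 and 0.83 for VEMD8, and was listed at 0 for VEMD6. Gene 13223 measured 1401 FPKM for WT, 2488 for VEMD2, 362 for VEMD3, 37.9 for VEMD4, 0.57 for VEMD6 and 1.32 for VEMD8. Relative to Defa5, 13222 was at 1.14 in WT and 1.27 in VEMD2, at 0.408 in VEMD3 and 0.0967 in VEMD4, and at 0.00385 in VEMD8. The 13223 value was likewise at 0.634 of Defa5 in WT, 0.28 in VEMD3, 0.091 in VEMD4, and 0.00619 and 0.00612 in VEMD6 and VEMD8. Relative to Defa5, both identifiers were thus below WT in VEMD3, further below in VEMD4 and furthest below in VEMD6 and VEMD8, but not below WT in VEMD2.

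Defa3 and Defa21 ran the other way. Defa3 was listed at 0 in WT, VEMD2, VEMD4 and VEMD8, and was at 5.33 FPKM in VEMD3 and 26.1 in VEMD6. Defa21 was listed at 0 in the same 4 libraries and in VEMD3, and was at 11.75 in VEMD6. Since WT was listed at 0, no fold is given for either gene. Defa22, which shares the promoter letters and all but 2 coding bases of Defa21, was at 414 in WT and 31.9 in VEMD6. Of all genes whose mean was over 5 FPKM, 16 were listed at 0 in at least 1 library, and 6 of these were Defa genes with a symbol and 1 was gene 13222. Defa21, with a mean of 1.96 FPKM, is not among them. Defa3, Defa2, Defa42 and Defa43 are, but reached that mean only through VEMD6, so nothing is read from this count. None of 7 genes used by every cell, among them Actb and Gapdh, was listed at 0.

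**Figure D2:**
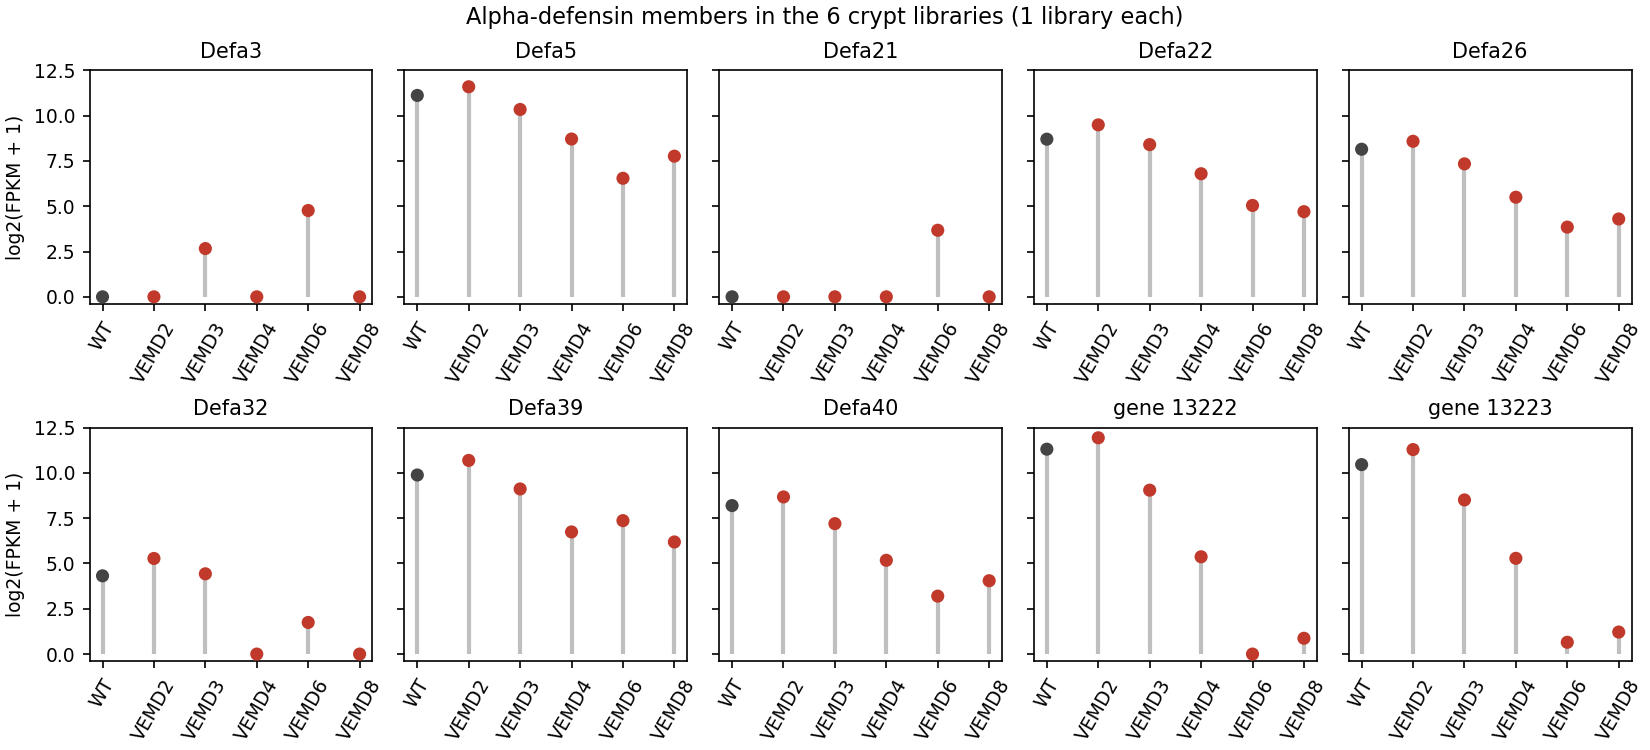
Level of each of the 10 members as log2(FPKM + 1) in the 6 crypt libraries, 1 point per library, with WT in grey and knockouts in red. Defa5 and 7 others are highest in VEMD2, genes 13222 and 13223 reach near 0 in VEMD6 and VEMD8, and Defa3 and Defa21 are highest in VEMD6.

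The make-up of the sum therefore differed between libraries. In WT, 13222 held 31.3% of the members' summed FPKM, Defa5 27.3%, 13223 17.3% and Defa39 11.6%, and VEMD2 was close to this, where Defa5 held 24.3% and 13222 held 30.9%. In VEMD4 Defa5 held 52.8% and Defa22 13.9%, while 13222 held 5.10%. In VEMD6 Defa39 held 46.7%, Defa5 26.3% and Defa3 7.47%, whereas in VEMD8 Defa5 held 61.9% and Defa39 20.6%. So VEMD6 and VEMD8, whose sums were nearly equal, had different leading genes.

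**Figure D3:**
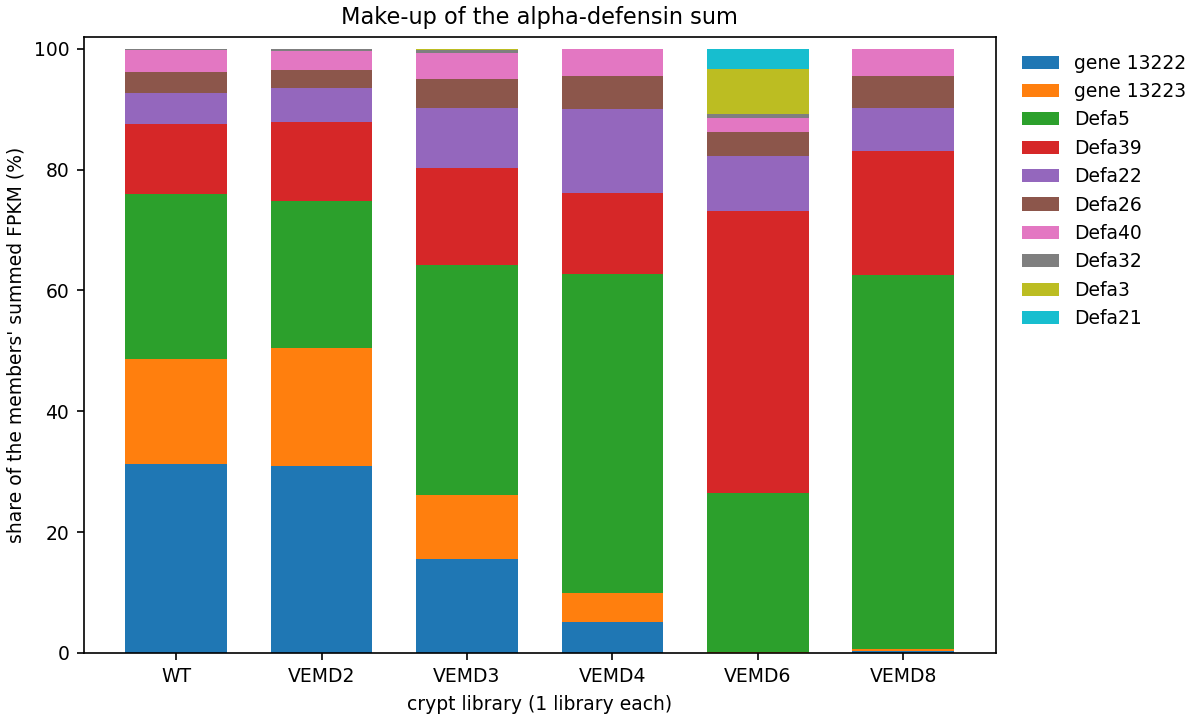
Share of the members' summed FPKM, in percent, taken by each member in each crypt library, with each bar adding to 100%. Genes 13222 and 13223 together take the lower part of the bars of WT and VEMD2 and are almost absent in VEMD6 and VEMD8, where Defa39 at 46.7% and Defa5 at 61.9% lead.

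The 20 other Defa genes of the cluster summed to 32924 FPKM for WT, and to 45589, 20545, 7228, 2706 and 3460 over the knockout libraries in order, lowest for VEMD6. The highest was Defa17, which measured 12801 FPKM for WT, 17679 for VEMD2, 8807 for VEMD3, 3321 for VEMD4, 792 for VEMD6 and 1357 for VEMD8. Defa24, Defa31 and Defa35 followed, at 6600.3, 6478 and 2459 in WT and at 586, 116 and 56.2 in VEMD6. Of 17 of these genes that passed the filter, 14 were 2-fold lower for VEMD4, 10 for VEMD6 and 13 for VEMD8. The shares of all tested genes were 5.04%, 8.15% and 5.21%. None was higher for VEMD4, 3 were for VEMD6 and 1 for VEMD8, against 7.10%, 5.04% and 4.36%. The shares of tested genes given with the members' counts also stand beside the list counts below. Of the FPKM of all Defa genes, the named members held 11.2% in the WT library and 8.96% to 12.1% across the knockouts.

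Of the 8 named members and 17 other Defa genes that passed the filter, 5 were 2-fold higher in VEMD6, namely Defa3, Defa21, Defa2, Defa42 and Defa43, against 5.04% of all tested genes. Defa2 and Defa43, like Defa3 and Defa21, passed the filter only through VEMD6, so nothing is read from this count. Defa2 was listed at 0 in WT and at 36.9 FPKM in VEMD6, Defa42 was at 3.07 and 81.1, and Defa43 at 0.55 and 82.6. In VEMD8 these were at 1.11, 0 and 0.24. Along the cluster the 5 genes lay from its first gene to 568 kb further on, with Defa genes of lower ratio between them. They too share most of their sequence with other genes. For Defa2 and Defa42 the share of stretches of 50 bases was 100%, and for Defa43 it was 97.6%.

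**Figure D4:**
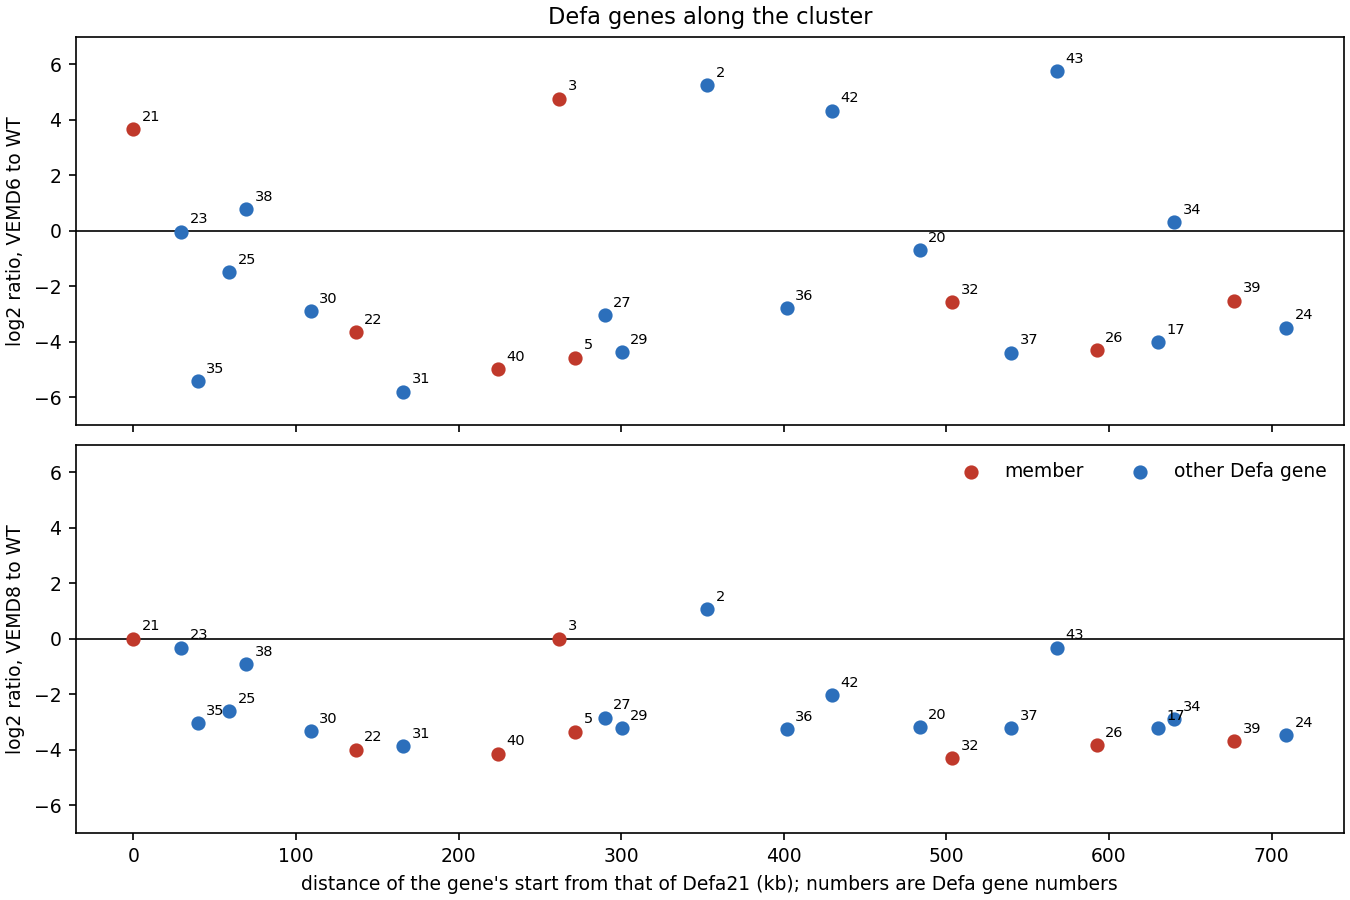
Log2 ratio to WT, on the log2(FPKM + 1) scale, of each tested Defa gene against the distance of its start from that of Defa21 in kb, for VEMD6 above and VEMD8 below. Red points are members, blue points other Defa genes, and in VEMD6 the genes 21, 3, 2, 42 and 43 lie far above 0 while most others lie below -2.

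Most other Paneth cell genes were also lower in VEMD4, VEMD6 and VEMD8. The list of 9 markers includes Gm15284, which RefSeq now names Defa30. Of these 9, none was 2-fold lower in VEMD2, 1 in VEMD3, 6 in VEMD4, and 8 each in VEMD6 and VEMD8, and Pnliprp2, a pancreatic-type lipase, was higher in VEMD4. Ang4, an antimicrobial ribonuclease, measured 724 FPKM for WT, 1099 for VEMD2, 618 for VEMD3, 196 for VEMD4, 31.3 for VEMD6 and 63 for VEMD8. Clps, the colipase gene, measured 135 FPKM for WT, 138 for VEMD2, 56.4 for VEMD3, 19.2 for VEMD4, 10.4 for VEMD6 and 19.9 for VEMD8. Mptx2, a mucosal pentraxin, measured 1309 FPKM for WT, 1953 for VEMD2, 774 for VEMD3, 305 for VEMD4, 117 for VEMD6 and 203 for VEMD8. These 3 genes were all lowest in VEMD6 and highest in VEMD2. Defa30, itself one of the other Defa genes, measured 1664 FPKM for WT, 2422 for VEMD2, 918 for VEMD3, 323 for VEMD4, 221 for VEMD6 and 163 for VEMD8.

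Set against the summed FPKM of Lyz1, Ang4, Mmp7, Itln1, Clps and Mptx2, the members' sum was at 0.924 in WT and 0.946 in VEMD2. The quotient was 0.434 for VEMD3, 0.232 for VEMD4, 0.388 for VEMD6 and 0.234 for VEMD8. The ratio was thus about the same in WT and VEMD2 and lower in the other libraries. Its size depended on 13222 and 13223. Without them, the log2 ratio to WT of this quotient was -0.57 in VEMD3 and -0.29 in VEMD6, short of 2-fold, against -1.09 and -1.25 with them. In VEMD4 and VEMD8 it was -1.19 and -1.03 without them, and over all Defa genes it was -0.86 and -0.73.

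Most listed genes with a role in processing and packing defensins were within 2-fold of WT in every library. Bulk RNA does not show which cells this RNA came from, so the levels are not read as those of Paneth cells. Of the 7 on the list, Mmp7 and Kcnn4 alone were 2-fold lower, both in VEMD6 and VEMD8. Mmp7, the enzyme that activates mouse alpha-defensins, measured 151 FPKM for WT, 238 for VEMD2, 214 for VEMD3, 141 for VEMD4, 20.1 for VEMD6 and 32.4 for VEMD8. In VEMD4 Mmp7 was thus close to WT while the members' sum was 10.2-fold lower. The sum of the named members was 5.85-fold lower in VEMD4, and that of all Defa genes 4.67-fold lower. Kcnn4, a potassium channel with a role in Paneth cell secretion, measured 41.5 for WT, 13.5 for VEMD6 and 15.2 for VEMD8. Xbp1, a transcription factor of the secretory pathway, stayed from 85.2 to 114 across the 6 libraries, and Nod2, a sensor of bacterial wall fragments, from 1.03 to 2.95.

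Of 9 genes of Paneth cell fate, none was 2-fold lower in VEMD2, VEMD3 or VEMD4, 3 were in VEMD6 and 1 in VEMD8, while 1, 3 and 2 were higher in VEMD2, VEMD3 and VEMD4. Atoh1, the factor that starts the secretory lineage, measured 10.7 FPKM for WT, 11.3 for VEMD4, 3.42 for VEMD6 and 4.5 for VEMD8. Spdef, a factor of goblet and Paneth cell maturation, measured 13.5 for WT, 18.4 for VEMD4 and 4.56 for VEMD6. The 3 lower genes in VEMD6 were Atoh1, Spdef and Sox9. Sox9, required for Paneth cells, measured 8.74 for WT, 19.2 for VEMD3, 19.7 for VEMD4 and 3.83 for VEMD6. Its log2 ratio in VEMD6, -1.01, lay at the edge of the 2-fold rule. Ephb3, a receptor that helps place Paneth cells at the crypt base, was at 6.17 in WT and 16.5 in VEMD3.

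Other antimicrobial genes were mixed. Of 9 tested, 3 were 2-fold lower in VEMD4, 7 in VEMD6 and 4 in VEMD8, and 3 were higher in VEMD8. Ang4, Lyz1 and Itln1 stand on this list too. Lyz1, the Paneth cell lysozyme, measured 4233 FPKM for WT, 6844 for VEMD2, 4289 for VEMD3, 1875 for VEMD4, 489.9 for VEMD6 and 896 for VEMD8. Itln1, a lectin, measured 2199.6 FPKM for WT, 3112 for VEMD2, 1879 for VEMD3, 872 for VEMD4, 232 for VEMD6 and 278 for VEMD8. Both were lowest in VEMD6. Pla2g2a, a secreted phospholipase, measured 56.5 for WT, 118 for VEMD4 and 7.79 for VEMD6. Reg3b and Reg3g, antibacterial lectins chosen for mention after their values were seen, were at 1687 and 1571 FPKM in WT and at 9734 and 6988 in VEMD8, where the members' sum was 23.2-fold lower. In VEMD6 they were at 389 and 677. Defb1, a beta-defensin, was at 0.38 or less in every library.

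The genes whose ratios to WT lay nearest to those of the members' sum over the 5 knockout libraries, among 8174 named genes whose mean reached 5 FPKM and with every Defa gene left out of the ranking, were Ccl6, Ang4, Clps, Osr2, Mptx2 and Mptx1. The root mean square difference was 0.84 log2 units for Ccl6, a chemokine, and 0.93 for Ang4. For Clps it was 1.0, for Osr2, a zinc finger factor, 1.09, and for the pentraxins Mptx2 and Mptx1 it was 1.13 and 1.17. Ccl6 measured 137 FPKM for WT, 167 for VEMD2, 79.4 for VEMD3, 45.5 for VEMD4, 4.83 for VEMD6 and 4.73 for VEMD8. Ang4, Clps and Mptx2 are also in the Paneth cell list, and all ratios share the WT library.

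Markers of other cell types differed between the libraries as well, and their part in the members' levels was not tested. Goblet cell markers had 6 of 7 genes 2-fold lower in VEMD6, 4 in VEMD8, 2 in VEMD3 and none in VEMD4. In VEMD2 and VEMD4, 1 of the 7 was 2-fold higher. The goblet markers summed to 5571 FPKM for WT, 6145 for VEMD4, 1166 for VEMD6 and 1960.4 for VEMD8. Enteroendocrine markers had 6 and 7 of 7 lower in VEMD6 and VEMD8, where they summed to 96.8 and 33.4 against 332 for WT. In VEMD3, 3 of these 7 were 2-fold higher, and the enteroendocrine sum was 627. Both other secretory lineages were thus low in VEMD6 and VEMD8, while in VEMD4 neither had a marker 2-fold lower. In VEMD4 the members' sum was 10.2-fold lower, that of the named members 5.85-fold and that of all Defa genes 4.67-fold. The sum of the other Paneth cell genes was 2.57-fold lower there. Enterocyte markers summed to 7807 for WT, 2648 for VEMD2, 2404 for VEMD3, 6092 for VEMD4, 13699.9 for VEMD6 and 6439.8 for VEMD8. Of these 7, 4 were 2-fold lower in VEMD2, where the members' sum was 1.57 times that of WT. In VEMD3, VEMD4, VEMD6 and VEMD8, 7, 3, 1 and 2 were lower, while 2 were higher in VEMD6 and 1 in VEMD8. Of 4 stem cell markers, 1 was lower for VEMD3, 2 for VEMD4, 3 for VEMD6 and 1 for VEMD8. Another 1 of the stem cell markers was 2-fold higher for VEMD3. Broad epithelial markers kept sums between 4704 and 5941 in all 6 libraries, with none of 6 lower by 2-fold and Krt18, a keratin, higher in VEMD3 and VEMD4, at 585 and 597 against 174 in WT. Low levels were found for the rest: of tuft, leukocyte and stromal markers, 1 of 4, 3 of 6 and 1 of 5 passed the filter, with sums of at most 4.07, 13.7 and 6.91 FPKM in any library. Among these, Dclk1, Cd79a, S100a8, Col3a1 and Acta2 were listed at 0 in at least 1 library.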

How the data were processed

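The authors deposited FPKM per gene, that is fragments scaled for gene length and library size, with the unit per the file headers, for 6 crypt libraries. Per the labels' protocols the sequencing was done on a BGI-500. The tools HISAT2, featureCounts and edgeR and the builds GRCm38 and mm10 are named, per the submitters' processing notes, with no versions or order. The column headed WT1 was taken as the crypt WT library, since the protocol lists WT with the knockout libraries run there. Of 20718 lines, 3760 held no value. Symbols came from RefSeq by gene identifier, which named 16916 of 16958 genes. With 1 library per group there was no test. A pseudocount of 1 FPKM was added before log2 ratios to WT, a 2-fold size rule was applied to genes whose mean reached 1 FPKM, and it was checked on simulated data. The depth is unknown. Low values did not fall on steps of whole fragments: the fullest bin of their ratios to WT held 5.29% to 6.87% of genes and the next one 5.03% to 5.95%.

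The members, gene lists and rules were chosen with earlier results of these data known. All members, the 4 highest other Defa genes, Defb1, up to 4 genes per list by their largest ratio, and the 6 nearest genes were to be named. Pnliprp2, Reg3b, Reg3g, Defa2, Defa23, Defa36, Defa38, Defa42, Defa43 and the number of listed zeros were added after their values were seen. Coding sequences came from GENCODE M21 transcripts matched by gene identifier and were aligned with Biopython 1.88. Protein sequences were not used here, and neither were stem cell libraries or the table of repeats.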

Additional observations from a re-analysis of the deposited data

Results flagged for a closer look

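No member of the 10 was 2-fold from WT in opposite directions in different knockout libraries, but 2 other Defa genes were. Defa23 measured 385 FPKM for WT, 2345 for VEMD2 and 174 for VEMD4, with log2 ratios to WT of 2.60 in VEMD2 and -1.14 in VEMD4. Defa42 was at 3.07 in WT and 81.1 in VEMD6 and was listed at 0 in VEMD8, with ratios on the log2(FPKM + 1) scale of 4.33 and -2.03. With 1 library each, these differences were not tested, and both genes share most of their sequence with near copies.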

How the results depend on the processing

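No paired analysis was possible because a single library stands for each group. The members' sum kept its direction in every knockout library under pseudocounts of 0.1 and 5 FPKM, rescaling to the median gene, and without Defa5, as it did in each of the added sums. In VEMD3 the summed log2 ratio of -1.25 came short of 2-fold over all Defa genes, at -0.69, and without 13222 and 13223, at -0.73. For the quotient to the other Paneth cell genes, leaving out 13222 and 13223 gave -0.57 in VEMD3 and -0.29 in VEMD6, and all Defa genes gave -0.53 for VEMD3, -0.86 for VEMD4, -0.32 for VEMD6 and -0.73 for VEMD8. These changes follow from which genes are summed. Both alternatives to this quotient, and the sum without 13222 and 13223, were chosen after seeing the data. Of single member ratios, the log2 ratio of Defa40 in VEMD3, -0.997 as reported and just short of 2-fold, passed it at -1.002 with a pseudocount of 0.1 and at -1.12 after rescaling. Depth is unknown, so no counting error can be given.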
